A study of Mus musculus with 80 samples.

Results

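Solute carriers are membrane proteins, named with the prefix Slc, that move small molecules across the plasma membrane and the membranes of organelles. The transcripts of 114 solute carrier genes were followed in mouse lung from weaning to old age. A gene was included when at least 1 spot on either of the 2 array tables had its symbol, beginning with Slc and a digit, and no other symbol; Slc34a2 and Slc38a4 were set apart. These are 114 of the 7151 genes that had such a spot, on 135 of 16896 spots. Of the 114, 97 had 1 spot, 15 had 2 and 2 had 4 (Slc12a2 and Slc38a1), and each gene is represented by its spot of highest mean over all mice. No filter on low values was used, so every member was tested. The 16 genes of family 25, most of which sit in the inner mitochondrial membrane, are described apart from the other 98. Slc9a3r1 has a carrier's symbol but encodes a scaffold protein, and Slc25a17 is known as a peroxisomal carrier.

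Carriers work either as exchangers, as cotransporters that use the sodium or proton gradient, or as uniporters that let a substrate run down its own gradient. In the lung, chloride and sodium cotransport bears on the fluid layer of the airways, the peptide transporter Slc15a2 takes up small peptides in the epithelium, and choline and fatty acid carriers feed the synthesis of surfactant lipid. Iron and zinc carriers set the metal content of cells and organelles, and nucleotide sugar carriers supply the Golgi with building blocks for glycans.

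Lung RNA came from 40 C57BL/6 mice fed without restriction, 20 of them male, with 1 array per table for each mouse and 80 arrays in all. Each of 4 age groups held 10 mice, 5 of each sex. The youngest group spanned 17 to 44 days, the next 169 to 194 days, the third 476 to 499 days and the oldest 704 to 743 days. No mouse carried a stated transgene or treatment. All levels are z scores, the number of array SDs by which a spot lies above the mean of its array. A difference is therefore relative to the other spots of the array, has no fold, and the levels of different spots cannot be compared as amounts of transcript. For 1 male, aged 714 days, title and description disagree on which mouse it was. The spread given is that between mice, and the number of arrays limits the precision.

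Defining markers of the labelled tissue were thinly represented. Of 7 alveolar type II markers only Sftpd was measured, of 5 alveolar type I markers only Cav1, and none of the 3 club cell, 3 T cell or 4 heart markers had a spot of its own. Erythroid markers differed within the youngest mice. All 4 of the 7 that were measured (Alas2, Hbb-y, Hba-a1 and Hba-a2) were lower at 33 to 44 than at 17 to 21 days. They had an adjusted p under 0.05 in limma, as did 7.34% of all genes in this direction. The summed z score of the 4 ran from 6.66 to 8.52 in the mice of 17 to 21 days. It ran from 3.67 to 5.75 in those of 33 to 44 days, and from 2.78 to 5.72 at 704 to 743 days. Of 3 measured fibroblast and smooth muscle markers, 2 were lower at 33 to 44 days. The sum of the 3 ran from 3.09 to 3.52 before and from 2.38 to 2.94 after. Once spot position was corrected for, as described further on, 0 of all 16896 spots passed, so none of these 6 marker calls remained. A z score has no zero of expression, so no marker can be said to lie at 0. The part of these cells in the carrier results was not tested, and in bulk tissue fewer cells of a type and less RNA per cell cannot be told apart.

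In the main fits, carriers had an adjusted p under 0.05 in limma only within the youngest mice. None of these calls remained after a correction for spot position or with title number as a term, both described further on. The 10 mice of 17 to 44 days fall into 5 of 17 to 21 days, around weaning, and 5 of 33 to 44 days. Between these, 9 of the 114 carriers (7.89%) passed the threshold of an adjusted p under 0.05 in limma, against 9.2% of all 7151 genes. The share among carriers was thus near that of all genes. Upward calls were 3 of 114 (2.63%) against a background of 1.86%, and downward calls 6 (5.26%) against 7.34%. At an unadjusted p under 0.05 there were 26 carriers (22.8%) against 21%, with 16 higher (14%) against 8.42% and 10 lower (8.77%) against 12.6%. The median difference over the 114 was 0.0317 z, and over all genes 0.0042 z. With the correction for spot position described further on, the median over the 114 turned to -0.0088 z.

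The promoters of the called carriers are shown for 3 genes, the one that fell most and 1 more in each direction. RefSeq promoters of build GRCm38.p6, from 250 bases before to 50 after the start, were at hand for 7 of the 9. They were searched on both strands for GGGCGG, the GC box, and for CACGTG, the E-box; both are written in capitals, the GC box also as its reverse complement, and each sequence runs 5′ to 3′ on the gene's own strand. The stretch of Slc12a7 is chr13:73763410-73763709 on the plus strand, that of Slc27a4 chr2:29802384-29802683 on the plus strand and that of Slc38a2 chr15:96699679-96699978 on the minus strand.
Slc12a7: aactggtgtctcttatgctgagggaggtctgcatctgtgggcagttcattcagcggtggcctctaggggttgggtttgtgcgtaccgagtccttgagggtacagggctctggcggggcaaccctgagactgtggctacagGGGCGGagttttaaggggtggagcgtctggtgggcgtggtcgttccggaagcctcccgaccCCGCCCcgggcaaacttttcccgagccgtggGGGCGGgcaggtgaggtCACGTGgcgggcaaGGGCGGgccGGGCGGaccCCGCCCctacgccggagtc
Slc27a4: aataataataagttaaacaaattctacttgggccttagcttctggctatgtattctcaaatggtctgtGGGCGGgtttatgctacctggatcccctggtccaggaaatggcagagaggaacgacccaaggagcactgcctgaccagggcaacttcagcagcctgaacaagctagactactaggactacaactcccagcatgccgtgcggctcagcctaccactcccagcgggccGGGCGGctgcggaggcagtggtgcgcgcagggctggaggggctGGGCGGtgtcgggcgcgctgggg
Slc38a2: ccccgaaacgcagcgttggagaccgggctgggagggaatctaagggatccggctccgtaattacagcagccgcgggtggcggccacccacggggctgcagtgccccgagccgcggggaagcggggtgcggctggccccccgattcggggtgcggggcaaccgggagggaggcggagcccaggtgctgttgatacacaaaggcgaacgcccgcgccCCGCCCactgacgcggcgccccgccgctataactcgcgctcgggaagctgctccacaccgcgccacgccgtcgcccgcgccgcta
GGGCGG occurred in at least 1 promoter of 6 of the 7 genes, with 6 copies in Slc12a7, 3 in Slc27a4 and 1 in Slc38a2. Of all 32851 promoters of this length in the table, 35.7% held it. CACGTG occurred in 1 of the 7, Slc12a7, and in 7.15% of all promoters. The counts out of 7 are of genes, some with several promoters, while the percentages are of single promoters, so the units differ. A match is a string of letters, not a measured binding site.

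Slc12a7 encodes KCC4, an electroneutral potassium-chloride cotransporter that helps cells shed volume. In the 5 mice of 17 to 21 days its z scores were 2.16, 1.55, 2.40, 1.54 and 2.07, and in those of 33 to 44 days they were 0.70, 1.02, 1.27, 0.49 and 1.24. Every younger mouse lay above every older one. The gene fell by 0.998 z (SE 0.193, limma adjusted p = 0.0154), the largest fall among the carriers. A second spot of the gene, on the other table, differed by 0.103 z (SE 0.0755, adjusted p = 0.533), in the opposite direction. Slc8a1, the sodium-calcium exchanger NCX1, fell by 0.465 z (SE 0.106, adjusted p = 0.0231), from 1.280 ± 0.153 (SD, n = 5) to 0.808 ± 0.177. Its lowest younger mouse stood at 1.06 and its highest older one at 1.04, so the groups only just stayed apart. Of the 11 carriers of protons, sodium, potassium, chloride, bicarbonate, sulphate and calcium, these 2 passed, and 8 of the 11 differences lay below 0.

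Among the sugar carriers, Slc2a4 encodes GLUT4, the glucose transporter that insulin brings to the surface of muscle and fat cells. Its z scores were 2.20, 1.79, 2.17, 1.88 and 2.07 at 17 to 21 days and 1.11, 1.22, 1.64, 1.30 and 1.47 at 33 to 44 days. The groups did not overlap, and the gene fell by 0.662 z (SE 0.118, limma adjusted p = 0.0152). Slc50a1, the mammalian member of the SWEET sugar efflux family, fell by 0.437 z (SE 0.113, adjusted p = 0.0360). One mouse of each part stood at 0.70, where the groups touched. The remaining 7 of the 9 sugar carriers did not pass.

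Of the 22 carriers listed with amino acids and peptides, 1 rose and 1 fell. Slc17a9, VNUT, loads ATP into secretory vesicles and falls in this list by its family number only. It stood at 1.76, 1.80, 1.63, 1.90 and 1.67 at 17 to 21 days and at 2.34, 2.25, 1.93, 2.39 and 2.14 at 33 to 44 days. No older mouse was as low as the highest younger one, and the gene rose by 0.452 z (SE 0.0995, limma adjusted p = 0.0207). Slc38a2, SNAT2, a sodium-coupled carrier of small neutral amino acids, was at 0.45, 0.42, 0.67, 0.48 and 0.42 and then at -0.21, 0.06, 0.35, -0.02 and 0.32. It fell by 0.403 z (SE 0.112, adjusted p = 0.0479), also without overlap. In this list 16 of 22 differences lay above 0.

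Both called members among the 10 carriers of fatty acids, choline, phosphate, urea and vitamins were higher at 33 to 44 days. Slc27a4, FATP4, imports long-chain fatty acids and joins them to coenzyme A. Its levels were -0.07, -0.13, -0.07, -0.02 and -0.13 and then 0.38, 0.30, 0.14, 0.46 and 0.28. All older mice lay above all younger ones, with a rise of 0.390 z (SE 0.0778, limma adjusted p = 0.0160). Slc44a2, a choline transporter-like protein, rose by 0.337 z (SE 0.0914, adjusted p = 0.0435) from 1.158 ± 0.111 (SD, n = 5) to 1.492 ± 0.144, and here 1 younger mouse at 1.34 stood above the lowest older one at 1.30.

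Slc25a17 was the only member of family 25 past the threshold. It fell by 0.519 z (SE 0.120, limma adjusted p = 0.0208), from a lowest younger value of 0.05 to a highest older value of 0.04. Of the 16 genes of the family, 11 differences lay below 0, and the median was -0.0625 z. In the other direction, 15 of 17 metal ion and haem carriers had differences above 0, as did 3653 of 7151 genes, with a median of 0.0875 z. After position correction that median was 0.0149 z and 0 of the 17 had an unadjusted p under 0.05. The zinc carriers Slc39a1, Slc39a4, Slc39a8 and Slc30a3 had an unadjusted p under 0.05 and none passed (adjusted p from 0.1884 to 0.2432). The nucleoside and nucleotide sugar carriers had 11 of 16 differences above 0 and no call.

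In all, 5 of the 6 falling genes and 2 of the 3 rising ones had no overlap between the parts. Over all carriers that was so of 8 downward (7.02%) and 4 upward (3.51%), against 7.59% and 2.53% of all genes.

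**Figure D1:**
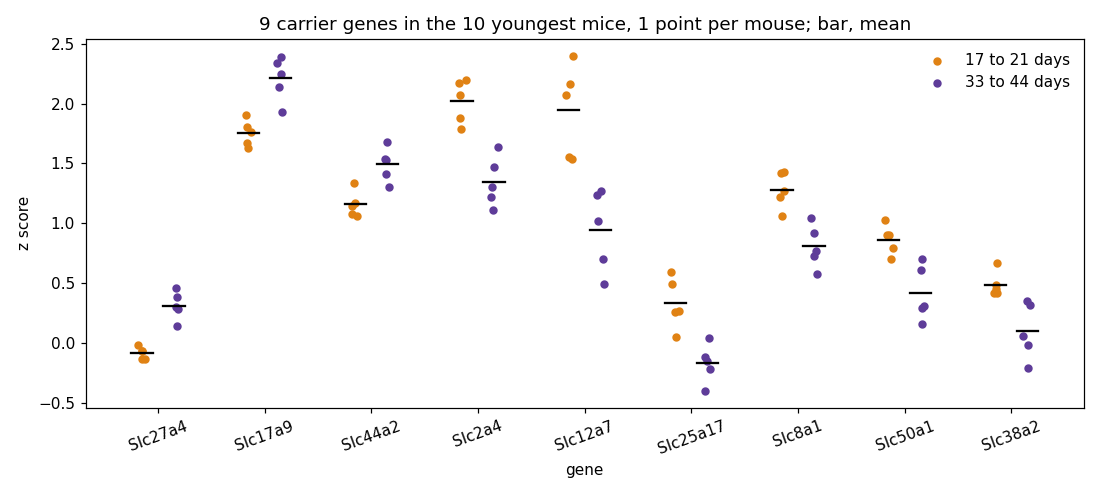
The z scores of the 9 called carriers (horizontal axis) in the 10 youngest mice, with 1 point per mouse and a bar at the mean of each part. The parts are the 5 mice aged 17 to 21 days (orange) and the 5 aged 33 to 44 days (purple). Slc12a7 shows the widest gap, from a mean of 1.944 to 0.944, and the points of Slc44a2 and Slc50a1 meet between the parts.

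The position of a spot on the array moved with these differences. Each table holds 16 blocks of 24 lines and 22 columns, so 23 other spots share a block and column with each carrier. For Slc2a4 the median difference of those 23 was -0.582 z, and all 23 lay below 0. For Slc12a7 it was -0.630 z, again with all 23 below 0, and for Slc27a4 0.302 z with 0 of 23 below 0. All 9 called carriers had the sign of their neighbours, as did 86 of the 114. Across the 114 genes, the difference of a carrier and the median of its neighbours had a Pearson r of 0.761, which describes spots that share arrays and is no test.

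After the median deviation of each block and column was subtracted, array by array, 0 of the 9 remained past the threshold, and 18 of the 114 had an unadjusted p under 0.05. Of all 16896 spots 0 passed after the correction, down from 1264, and 16.3% had an unadjusted p under 0.05. The median over the 9 genes of the ratio of the corrected to the uncorrected difference was 0.223. Slc2a4 came to -0.0646 z, Slc50a1 to -0.0975 z, Slc25a17 to -0.0893 z, Slc8a1 to -0.0969 z, Slc44a2 to 0.0382 z and Slc27a4 to 0.0992 z. More was left of Slc12a7 at -0.366 z (SE 0.0970), Slc38a2 at -0.282 z (SE 0.0737) and Slc17a9 at 0.261 z (SE 0.0772). The spot of Slc12a7 lies in the line next to that of the haemoglobin gene Hba-a2, in the same block and column. Hba-a2 had a mean z score of 2.83 and an uncorrected difference of -1.257 z within the youngest mice. Whether signal of the Hba-a2 spot entered the values of Slc12a7, corrected or not, was not tested. The part of spot position in the differences was not tested otherwise.

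The number in a mouse's title also moved with the parts. Of the 12 mice with a number above 46, 2 are among the youngest, and both are of 33 to 44 days. With this division as a term in the fit, 0 carriers and 0 of 16896 spots passed, and Slc12a7 stood at -0.939 z (SE 0.230, limma adjusted p = 0.0782), Slc2a4 at -0.530 z (SE 0.115) and Slc27a4 at 0.368 z (SE 0.0881). All 9 kept their sign among the 8 mice of lower numbers, where 0 passed. Single mice decided calls too: leaving out the male of 19 days or the female of 33 days took the count to 0, leaving out the female of 17 days or the female of 21 days to 3, and leaving out the female of 40 days to 15. Over all spots, the calls with 1 of these mice left out ran from 0 to 1944 of 16896.

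**Figure D2:**
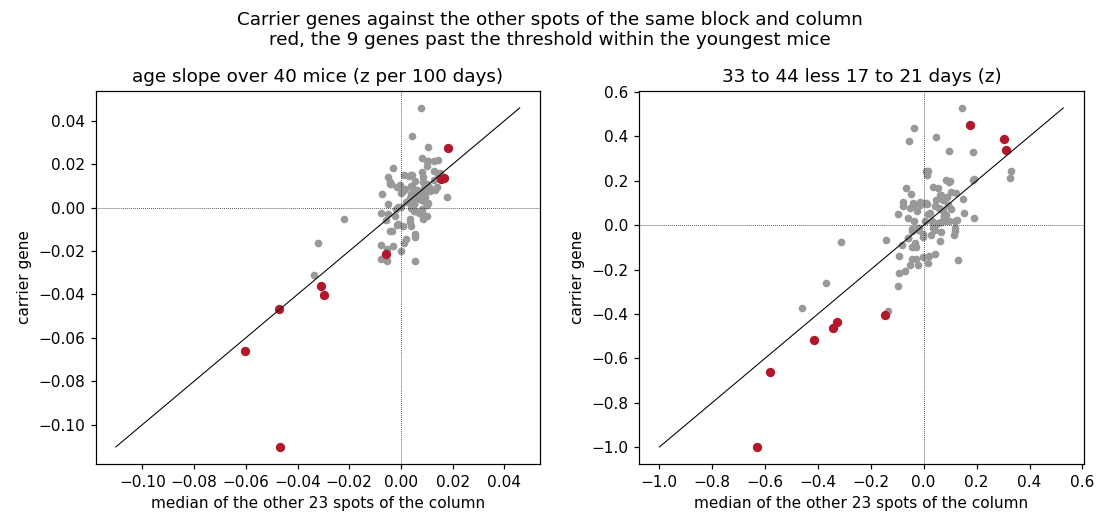
Each point is 1 of 114 carrier genes, with its own effect on the vertical axis and the median effect of the other 23 spots of its block and column on the horizontal axis, for the age slope (z per 100 days, left) and the difference within the youngest mice (z, right); the line marks equal values. The 9 genes called within the youngest mice are red, and in the right panel each lies on the same side of 0 on both axes.

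Over the whole range of ages, no carrier passed the threshold with age in days, while 9 did with log2 of age (7.03% of all spots did) and 8 with array weights (7.77% of all spots). The age slope was fitted over all 40 mice with sex as a term, and 0 of 114 carriers had an adjusted p under 0.05 in limma, against 0.028% of all genes. At an unadjusted p under 0.05 there were 14 carriers (12.3%) against 15.5% of all genes, with 6 upward (5.26%) against 5.13% and 8 downward (7.02%) against 10.4%. Slopes lay above 0 in 71 of 114 carriers and in 3961 of 7151 genes, with medians of 0.0041 and 0.0019 z per 100 days. After position correction the carriers' median was -0.0003. Among all 16896 spots 3 passed, and 2324 had an unadjusted p under 0.05.

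The 2 steepest downward slopes belonged to genes that fell within the youngest group, whose 10 mice enter both fits. Slc12a7 ran from 0.49 to 2.40 with a median of 1.405 at 17 to 44 days, from 0.04 to 1.91 with a median of 0.785 at 169 to 194 days, from 0.40 to 1.71 with a median of 0.975 at 476 to 499 days and from 0.06 to 1.20 with a median of 0.485 at 704 to 743 days. The oldest group had the lowest median, and all neighbouring groups overlapped. Its slope was -0.110 z per 100 days (SE 0.0289, limma adjusted p = 0.0537), just short of the threshold. After correction for spot position it was -0.0562 (SE 0.0135, limma adjusted p = 0.0680). The adjacent Hba-a2 spot had an uncorrected slope of -0.116 z per 100 days, and its part in the slope of Slc12a7 was not tested. The second spot had a slope of opposite sign, 0.0202 (SE 0.00787, adjusted p = 0.193), with a range of 0.31 to 0.57 in the youngest and 0.45 to 0.72 in the oldest group. Corrected for position, that second slope was 4.0e-05 (SE 0.0047).

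Slc2a4 had a slope of -0.0659 z per 100 days (SE 0.0180, limma adjusted p = 0.0537). Group medians were 1.715, 1.340, 1.375 and 1.110 from the youngest to the oldest group, with ranges of 1.11 to 2.20 and 0.65 to 1.54 at the ends. Again the ends overlapped. The neighbouring spots of Slc2a4 had a median slope of -0.0602, and the corrected slope was -0.00506 (SE 0.00413). Leaving out any 1 of 11 mice brought both Slc12a7 and Slc2a4 past the threshold, as did a block on the 5 runs of title number that each hold 1 mouse of every sex and age (limma adjusted p = 0.0383 for both). Calls over all spots rose as well. The block called 404 of 16896 spots (2.39%), and with each mouse left out in turn the calls ran from 3 to 631, against 3 in the fit of all 40 mice.

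Amino acid carriers were found on both sides. Slc38a9, a lysosomal arginine carrier that signals amino acid supply to mTORC1, had a slope of -0.0311 z per 100 days (SE 0.00977, limma adjusted p = 0.0854) and a corrected slope of 0.000023. Slc15a2, PEPT2, the proton-coupled peptide transporter, had medians of 0.520, 0.505, 0.435 and 0.365 and a slope of -0.0248 (SE 0.00941, adjusted p = 0.174). Its slope changed little with the position correction, to -0.0202 (SE 0.00836), and its 4 age groups overlapped. Slc1a4, ASCT1, a neutral amino acid exchanger, had -0.0236 (SE 0.00918, adjusted p = 0.192) and -0.0148 (SE 0.00940) after correction. Upward, Slc6a13, a carrier of GABA and taurine, had 0.0459 (SE 0.0218, adjusted p = 0.331) and 0.0360 (SE 0.0113, adjusted p = 0.134) after correction. Its medians were 1.475, 1.855, 1.785 and 1.885, with single mice above 2.5 in every age group. Levels of this gene separated by title number: the 13 mice numbered 46 and above stood at 2.09 to 2.65 and the 27 others at 1.19 to 2.00, with 2, 3, 4 and 4 of the later mice in the age groups from youngest to oldest. With that division as a term the slope was 0.0260 (SE 0.0114, limma adjusted p = 0.241), and with the 5 runs of title number as a block it was 0.0465 (SE 0.0121, adjusted p = 0.0383). Slc17a9 had 0.0276 (SE 0.0110, adjusted p = 0.210) and Slc15a4, a lysosomal histidine and peptide carrier, 0.0158 (adjusted p = 0.456). After position correction these slopes were 0.00815 (SE 0.00824) and 0.00263 (SE 0.00473). Of the 22 in this list, 13 slopes lay above 0.

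Slc5a6 carries the vitamins biotin and pantothenate with sodium and is listed with the sugar carriers by its family. It had a slope of 0.0329 z per 100 days (SE 0.0141, limma adjusted p = 0.257) and 0.0289 (SE 0.0154) after correction. Its medians at the 3 earlier ages were -0.370, -0.400 and -0.420, and the oldest group had -0.210 with a range of -0.72 to 0.51. The spread of the oldest mice, an SD of 0.370 against 0.161 to 0.205 before, was the widest of the 4. A second spot of Slc5a6 had a slope of -0.0105. Slc45a4 had 0.0168 (SE 0.00718, adjusted p = 0.257) and Slc50a1 -0.0360 (SE 0.0127, adjusted p = 0.134). After position correction these slopes were 0.00655 (SE 0.00473) and -0.00490 (SE 0.00489).

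Among ion and metal carriers, Slc8a1 had a slope of -0.0402 z per 100 days (SE 0.0141, limma adjusted p = 0.134) and -0.00771 (SE 0.00437) after position correction. Slc30a7, a zinc carrier of the Golgi, had 0.0216 (SE 0.00995, adjusted p = 0.308) with 0.0136 (SE 0.00744) after correction. Slc40a1, the iron exporter ferroportin, had 0.0128 (SE 0.00620, adjusted p = 0.344) with 0.000686 after correction. Slc30a9 had 0.0152 (adjusted p = 0.424) with 0.0147 (SE 0.00525) after correction. Slc40a1 also had the smallest spread of all carriers, an SD between mice of a group of 0.0930. Of 17 metal and haem carriers 12 had slopes above 0, and of 10 carriers of fatty acids, choline, phosphate, urea and vitamins 9 did, with corrected medians of -0.0025 and -0.0001. In family 25 the slopes were 8 above and 8 below 0, and Slc25a17 had -0.0469 (SE 0.0151, adjusted p = 0.0928) and 0.00173 after correction.

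**Figure D3:**
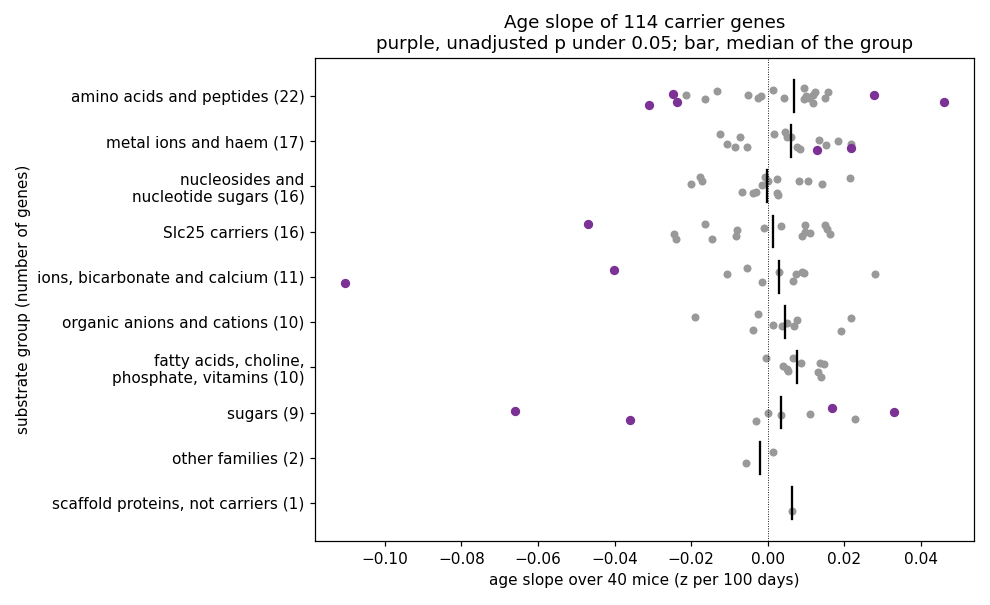
Age slope over 40 mice (z per 100 days) of each of the 114 genes, by substrate group with the number of genes in brackets; the bar is the group's median and purple marks an unadjusted p under 0.05. The medians sit close to 0, and Slc12a7 at -0.110 and Slc2a4 at -0.0659 stand farthest to the left.

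**Figure D4:**
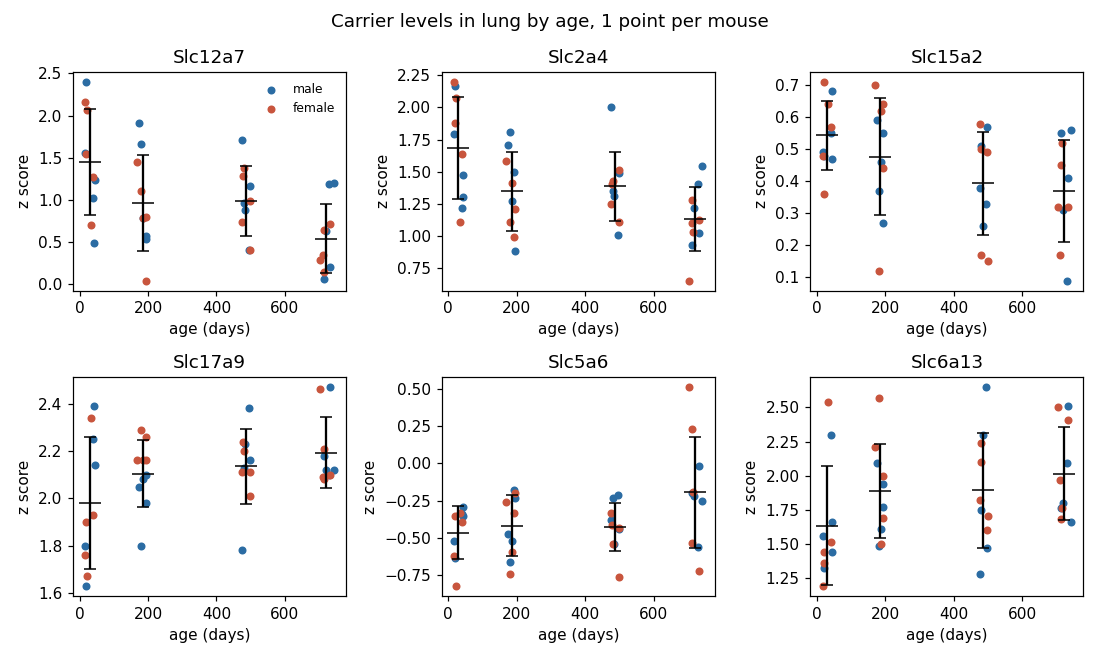
The z scores of 6 carriers against age in days, 1 point per mouse by sex, with the mean and SD of each group of 10. Every panel has overlapping age groups, and the oldest mice of Slc5a6 spread from -0.72 to 0.51.

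The 14 slopes with an unadjusted p under 0.05 all had the sign of their neighbouring spots, and the median over these genes of the ratio of the corrected to the uncorrected slope was 0.343. Among the 17 genes with several spots, all spots of a gene had slopes of 1 sign in 7, and differences of 1 sign within the youngest mice in 5. Slc16a13, a member of the monocarboxylate carrier family, had 0.0051 z per 100 days at its brighter spot and -0.0543 (unadjusted p = 0.0043) at the other. Corrected for position, the slope of the dimmer spot was -0.0192 (SE 0.00943). Within the youngest mice this dimmer spot differed by -0.520 z (SE 0.134, limma adjusted p = 0.0304), where 7.48% of all spots passed, and by -0.102 z after correction.

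Age slopes over the 30 mice of 169 days or older gave 0 calls among the carriers, against 0% of all genes, and 1 unadjusted p under 0.05 (0.877%) against 2.59%. That gene was Slc12a7, with -0.0770 z per 100 days (SE 0.0365, unadjusted p = 0.0427) and -0.0516 after position correction. Slc5a6 came next at 0.0380 (SE 0.0215), followed by Slc2a4 at -0.0388 (SE 0.0218). Slc35a2, the Golgi carrier of UDP-galactose, had 0.0317, Slc40a1 0.0137, and Slc16a1, the lactate and pyruvate carrier MCT1, 0.0232. Slc50a1 had -0.0236 and Slc25a44, which brings branched-chain amino acids into mitochondria, -0.0356. Levels of Slc25a44 separated by title number, at -2.07 to -1.53 in the 13 mice numbered 46 and above and -1.52 to -0.94 in the 27 others. From the youngest adults to the oldest mice, 3, 4 and 4 of 10 were among the later numbers.

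From 17 to 44 days to 169 to 194 days, 0 carriers passed, as did 0% of all genes. At an unadjusted p under 0.05 there were 6 carriers (5.26%) against 7.24%, 1 upward (0.877%) against 1.29% and 5 downward (4.39%) against 5.96%. Slc1a4 had the smallest p, at -0.184 z (SE 0.0633, limma adjusted p = 0.819) and -0.179 z after correction. Slc38a9 was at -0.188 z, Slc2a4 at -0.338 z and Slc25a17 at -0.265 z, and after correction these were -0.0198, -0.0454 and -0.0170 z. On the upper side were Slc30a7 at 0.178 z (SE 0.0711), Slc25a26, the mitochondrial carrier of S-adenosylmethionine, at 0.149 z, Slc44a2 at 0.145 z and Slc45a4 at 0.104 z. After position correction 2 of the 114 had an unadjusted p under 0.05, against 5.04% of all spots. Both were amino acid and peptide carriers, so none of these 4 upward genes was among them. The SD of Slc2a4 was 0.400 in the youngest group and 0.251 to 0.308 in the later ones.

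From 169 to 194 days to 704 to 743 days, again 0 carriers passed (0.014% of all genes did), and 1 had an unadjusted p under 0.05 (0.877%) against 2.31%. This was Slc5a6, 0.223 z higher in the oldest mice (SE 0.109, unadjusted p = 0.0478, limma adjusted p = 0.999) and 0.228 z higher after correction. Slc12a7 was at -0.423 z (SE 0.221), Slc2a4 at -0.218 z, Slc25a44 at -0.188 z and Slc35f2 at -0.139 z. The mice numbered 46 and above, all lower in Slc25a44 than the others, were 3 of 10 in the earlier and 4 of 10 in the later group. Slc35a2 was at 0.174 z, Slc2a8, an intracellular glucose transporter, at 0.131 z and Slc19a3, a thiamine carrier, at 0.0800 z. After position correction Slc12a7 was at -0.284 z (SE 0.105) and Slc19a3 at 0.0234 z (SE 0.0337). With that correction 5 of the 114 had an unadjusted p under 0.05, against 3.4% of all spots.

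No carrier passed for sex. Between males and females 0 of 114 had an adjusted p under the threshold in limma, against 0% of all genes, and 1 had an unadjusted p under 0.05 (0.877%) against 1.47%. Slc35e2 was at -1.016 ± 0.286 (SD, n = 20) in males and -0.830 ± 0.289 in females, a difference of -0.186 z (SE 0.0855, limma adjusted p = 0.9998). Lower in males by smaller amounts were the fructose transporter Slc2a5 (-0.0630 z), the citrate carrier Slc25a1 (-0.0710 z) and the nucleoside carrier Slc28a3 (-0.0430 z). Slc30a2, a zinc carrier of vesicles, was at 0.135 z, Slc35b1 at 0.112 z, Slc16a13 at 0.102 z and Slc35f6 at 0.0730 z. After position correction Slc16a13 was at 0.0286 z (SE 0.0276), and 3 of the 114 had an unadjusted p under 0.05, against 1.92% of all spots. For age slopes that differ by sex there were 0 calls (0% of all genes) and 2 unadjusted p under 0.05 (1.75%) against 1.83%. These were Slc35f6, whose slope was 0.0348 z per 100 days more positive in males (SE 0.0159), and Slc30a3, with -0.0303 (SE 0.0147). Slc44a4 had 0.0438 and Slc39a14, a zinc and iron importer, -0.0463.

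Several carriers with known parts in lung or blood showed no change past the threshold in these comparisons. Slc4a1, the band 3 anion exchanger of red cells, was at -0.219 ± 0.113 (SD, n = 10) in the youngest and -0.159 ± 0.162 in the oldest group. Within the youngest mice it differed by 0.0692 z (SE 0.0831, limma adjusted p = 0.754), where the 4 erythroid markers had a median of -0.652 z. Slc12a2, the sodium-potassium-chloride cotransporter NKCC1, had a slope of 0.0074 z per 100 days (SE 0.0104). Slc3a2, the heavy chain that carries light chains such as Slc7a6 to the surface, had 0.0118 (SE 0.0096), and the glutamine carrier Slc1a5 -0.0017 (SE 0.0079). Slc39a8, an importer of zinc and manganese, had 0.0050, the equilibrative nucleoside carrier Slc29a1 0.0081, Slc16a1 0.0077 and the phosphate carrier Slc20a1 0.0086. In mitochondria, the phosphate carrier Slc25a3 had 0.0097, Slc25a1 0.0098 and the acylcarnitine carrier Slc25a20 -0.0144. For Slc2a1, Slc7a5, Slc11a1, Slc11a2, Slc6a4, Slc25a4 and Slc25a5 there was no spot with that symbol alone, and they were not analysed here.

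The highest mean z scores over 40 mice were those of Slc17a9 (2.10), Slc35e1 (2.06), Slc6a13 (1.86), Slc7a6 (1.56), Slc3a2 (1.56), Slc38a9 (1.5), Slc44a2 (1.42) and Slc2a4 (1.39). At the bottom were Slc35a5 (-2.41), Slc35a2 (-1.82), Slc1a4 (-1.504) and Slc25a44 (-1.47). These are spot brightnesses, which depend on the clone as well as on the transcript, and give no ranking of expression. The largest spread between mice of a group was in Slc12a7 (SD 0.534), then Slc6a13 (0.408), Slc38a1 (0.393) and Slc35a5 (0.390). Slc38a1, SNAT1, a carrier of glutamine and other neutral amino acids, stood at 0.82 to 1.27 in the 13 mice numbered 46 and above and at -0.04 to 0.52 in the other 27. Such a separation without overlap was seen in 4 carriers (3.51%), Slc6a13, Slc38a1, Slc25a32 and Slc25a44, and in 1.36% of all genes. The median SD of the 114 was 0.184, and that of all genes 0.188.

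Other genes of membrane transport were set beside the carriers. Of 92 listed pumps, channels, ABC transporters, Slco carriers and accessory subunits, 42 had a spot of their own. For the age slope 0 of 42 passed, as did 0.028% of all genes. At an unadjusted p under 0.05 there were 3 upward and 4 downward, against 5.13% and 10.4% of all genes. Within the youngest mice 1 rose and 3 fell by limma at the same threshold as above, against 1.86% and 7.34% of all genes. Ezrin (Ezr), which ties carriers to the cytoskeleton, rose by 0.441 z (SE 0.121, adjusted p = 0.0457). The ABC transporters Abcd4 and Abca1, which export cobalamin from lysosomes and cholesterol from cells, fell by 0.414 z (SE 0.0862, adjusted p = 0.0173) and by 0.409 z (SE 0.0961, adjusted p = 0.0258). The sodium pump regulator Fxyd6 fell by 0.434 z (SE 0.107, adjusted p = 0.0293). None of these calls remained after position correction or with the division by title number as a term, where 0 of all 16896 spots passed. None of the 9 listed water channels was measured.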

How the data were processed

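Values are the score as deposited by the authors: z scores, scaled so that the 8448 spots of each array have mean 0 and SD 1. Per the labels' protocols, RNeasy kits gave the RNA and 33P-dCTP the label of the cDNA. Log base, background correction and filters: not given in the sources used here. Names come from the platform annotation, where 9663 spots had 1 symbol, 436 several and 6797 none; 10 spots with a carrier's symbol among several were left out. All 114 symbols matched the RefSeq gene table.

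Each table was fitted on its own with limma 3.58.1 (R 4.3.3; lmFit, then eBayes), and the two-sided p-values of all 16896 spots were adjusted together by Benjamini-Hochberg, with a threshold of 0.05. Slopes are per 100 days with sex as a term; steps and sex are contrasts of 8 group means. Replicates are separate mice per the labels. Fits were tested on simulated data. The spot layout of 16 blocks of 24 lines and 22 columns was read from the data in earlier work. Alternatives were array weights, quantile normalization, a filter on dim spots, robust and trended eBayes, spot position, title number, log2 of age, only the age groups compared, the mean of all spots of a gene, the male with conflicting labels left out, and each mouse left out in turn. A division that counts the mouse numbered 46 with the later ones, and the 5 runs of title number as a block, were added after seeing the data.

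Members, substrate groups, lists, comparisons and alternatives were chosen with earlier results of these data known. Named genes are those with the smallest p per direction (up to 8 for the slope over 40 mice and for calls within the youngest mice, 4 for other comparisons, 2 for the interaction), the 8 brightest, 4 dimmest and 4 most variable carriers, and a fixed list. Second spots of Slc12a7, Slc5a6 and Slc16a13, Slc38a1 and Slc12a2 as genes of 4 spots, Slc25a32, and the 4 zinc carriers within the youngest mice were named after their values were seen. Figures used matplotlib 3.10.9 in Python 3.11.15.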

Additional observations from a re-analysis of the deposited data

Results flagged for a closer look

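The carriers named for the slope over 40 mice or within the youngest mice, 19 genes in 4 age groups of 10 mice, gave 76 groups. In 5 of them the highest or lowest mouse stood farther from the next than Dixon's critical value allows. Chance gives about 1 in 20 such groups. Slc2a4 had its highest mouse of 476 to 499 days at 2.00 and Slc25a17 its highest at 0.48, and both were male replicate 2 of that age. Without this male, 3 carriers passed for the slope over 40 mice (Slc12a7, Slc25a17 and Slc2a4) in limma. With each mouse left out in turn, 0.0178% to 3.73% of all spots were called for this slope. With all 40 mice and spot position corrected, the slope was -0.00506 z per 100 days for Slc2a4 and 0.00173 for Slc25a17. That of Slc12a7 was -0.0562. Slc27a4 had its highest mouse of 704 to 743 days at 0.73 and Slc44a2 its highest at 1.89, both of them female replicate 5 of that age. Slc30a7 had its lowest mouse of 169 to 194 days, male replicate 2, at 0.23.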

How the results depend on the processing

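For the adult slope, both steps, sex and the slope by sex, the count of called carriers stayed at 0 under every alternative run. For the slope over 40 mice it was 2 with the filter on dim spots (0 up, 2 down; 4.07% of all spots were called), 8 with array weights (2 up, 6 down; 7.77%), 9 with log2 of age (2 up, 7 down; 7.03%), 3 with runs of title number as a block (1 up, 2 down; 2.39%) and 0 to 4 with each mouse left out in turn (0.0178% to 3.73%), where calls always included Slc12a7 and Slc2a4. The 11 mice whose omission gave them were, at 17 to 44 days, male replicates 1 and 5 and female replicate 5, at 169 to 194 days male replicates 1 and 3 and female replicates 2, 3 and 5, at 476 to 499 days male replicate 2, and at 704 to 743 days male replicates 1 and 4. Within the youngest mice 9 became 0 after position correction, 0 with either division by title number as a term, 0 with runs of title number as a block, 0 among title numbers up to 46 only, and 0 to 15 with each mouse left out (0% to 11.5% of all spots). With array weights the count was 6 (5.81% of all spots were called), and with quantile normalization 10 (6.95%). Robust and trended eBayes gave 11 (8.84%). The mean of all spots of a gene gave 7 (6.17% of the 14384 values tested), and the filter on dim spots 13 (15% of the 11264 spots kept). The cause of these changes was not tested.

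Signs turned in 10 named values. Among the 12 title numbers above 46 alone, the slope of Slc6a13 was -0.0019, the step from the youngest to 169 to 194 days was -0.010 for Slc45a4, -0.055 for Slc44a2, 0.015 for Slc1a4, 0.035 for Slc38a9, 0.245 for Slc2a4 and 0.250 for Slc25a17, and the sex difference of Slc35b1 was -0.0388. With position corrected, the slopes of Slc38a9 and Slc25a17 were 0.000023 and 0.00173. That subset gives no value within the youngest mice. The labels give no replicate numbers; those printed here follow the order of accession and pair no mice. The title numbers fall into 5 runs with 1 mouse of each sex and age group, and the block on these runs was the nearest to a paired fit. The carriers it called for the slope were Slc12a7, Slc2a4 and Slc6a13 (limma adjusted p = 0.0383 each), among 2.39% of all spots. The signal over background was not used here.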
